A study of Homo sapiens with 12 samples.

Results

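The genes described here are the 4 protein kinases that phosphorylate the translation initiation factor eIF2, EIF2AK1 (HRI), EIF2AK2 (PKR), EIF2AK3 (PERK) and EIF2AK4 (GCN2), with 5 of their regulators, GCN1, IMPACT, PPP1R15B, DELE1 and OMA1. They were taken by gene symbol as 9 of the 23500 genes in the deposited table, and all 9 passed the filter on low counts that left 17162 genes for testing. The table holds RNA sequencing of HEK293T, a human embryonic kidney line that carries the SV40 large T antigen, and of R1, a methionine-independent clone derived from HEK293T. Each line was kept for 12 h either in medium with methionine (+Met) or in medium in which homocysteine took the place of methionine (-Met+Hcy), with 3 libraries in each of the 4 groups and no other treatment. Both media were built on methionine-free DMEM with dialyzed serum, cyanocobalamin, glutamine and cysteine. The titles name R1, whereas the cell line field reads HEK293T for all 12 libraries, so the line was taken from the title. R1 is 1 line, and what belongs to methionine independence and what belongs to that line otherwise cannot be told apart. No source says whether the 3 libraries of a group came from separate cultures, so the p-values measure the spread between these libraries, which may be technical.

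The kinases form the upstream arm of the integrated stress response. Each senses a different stress: HRI responds to heme shortage and, through a signal from mitochondria, to mitochondrial damage, PKR to double-stranded RNA, PERK to unfolded proteins in the endoplasmic reticulum, and GCN2 to uncharged tRNA and stalled ribosomes. Phosphorylated eIF2 inhibits its exchange factor eIF2B, which lowers general translation and favours the translation of ATF4. The kinases are switched on by events at the protein level, which an RNA measurement does not record. Replacing methionine by its precursor homocysteine asks how the parental line and the methionine-independent line respond to the same change of medium.

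Total counts ran from 12664158 to 18771349 per library. The lowest count of any of the 9 genes in a library was 203, with a counting error of 7.02%, and the highest was 8494, with one of 1.09%, so that counting error was not the limit. Levels are given as CPM, each count scaled to its column sum, and fold changes come from a fit scaled by trimmed means (TMM). The choice of scale mattered: with column sums alone the median log2 fold change of all genes was 0.33 for the change of medium in HEK293T and 0.37 for R1 against HEK293T in +Met, against 0.03 and 0.02 with TMM. HEK293 lineage genes were detected in every group, with VIM at 305 to 834 CPM and PAX2 at 0.205 to 1.33 CPM in HEK293T and 2.82 to 6.06 CPM in R1. Of the 7 lineage genes, PAX2, KRT8 and CDH2 were called higher and NEFM lower in R1 in +Met, PAX2 and CDH2 higher and NEFM lower in R1 in -Met+Hcy, and KRT8 higher and VIM lower with the medium in HEK293T (edgeR, 12 libraries). Of the markers of other cells, KRT5 and KRT14 did not pass the filter on low counts, PTPRC and ALB stayed under 1 CPM, and COL1A1, a fibroblast marker, was at 8.22 to 18.7 CPM in HEK293T and 13.0 to 39.8 CPM in R1. COL1A1 was called higher in R1 in both media (edgeR, adjusted p = 0.028 in +Met and 0.0491 in -Met+Hcy). The part of these genes in the differences between the lines was not tested. A difference in level may mean more RNA per cell or more cells of a kind, which cannot be told apart in bulk RNA.

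The third R1 -Met+Hcy library stood apart. Across 11043 genes its deviation from its group fell with the GC content of the transcript (Spearman rho = -0.74). The same rho was -0.34 to 0.73 in the other 11 libraries, with 0.60 and 0.73 in the other libraries of its group, which are measured from the same group mean, and 0.54 in the first HEK293T +Met library. The common dispersion of the fit was 0.109 with it and 0.0349 without it. Over the 9 genes the same ratio had a Spearman rho of -0.75 with GC content, as a description. In that library DELE1 was at 0.253 and GCN1 at 0.302 times the mean of the other 2 libraries of its group, while EIF2AK2 was at 2.08, OMA1 at 1.87, EIF2AK3 at 1.75 and IMPACT at 1.49 times. EIF2AK1 (1.07) and EIF2AK4 (1.0) hardly moved, and PPP1R15B was at 0.657. Where it moved an edgeR fold change printed below for the 9 genes, both values are given.

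**Figure D1:**
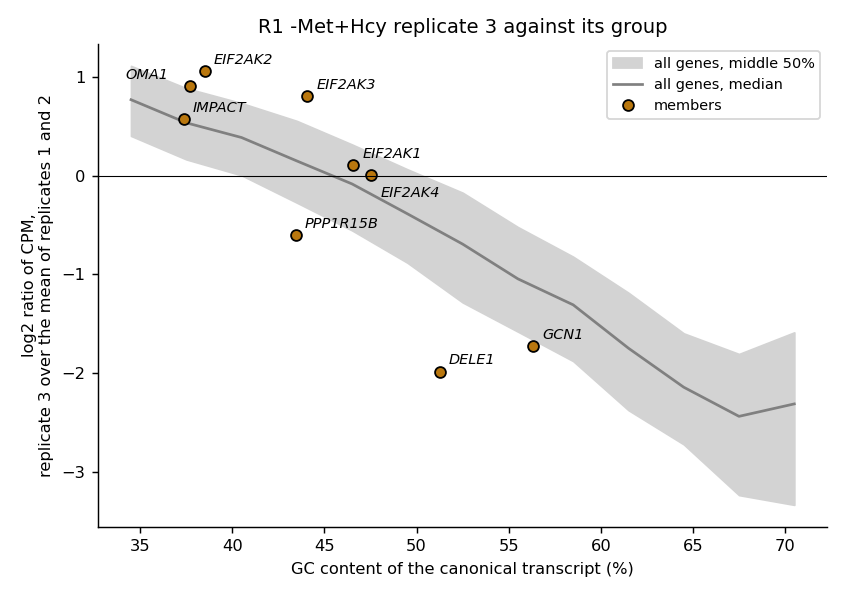
Log2 ratio of CPM in the third R1 -Met+Hcy library over the mean of the other libraries of its group (vertical axis) against the GC content of each gene's canonical transcript in percent (horizontal axis), for the 9 genes (points) and all genes (line, median in GC bins; band, middle 50%). DELE1 and GCN1, with GC contents of 51.27% and 56.34%, lie lowest, and EIF2AK2, OMA1 and IMPACT, all under 39% GC, lie above 0.

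To show what the start sites of these genes look like, the promoter windows of 3 members and of 1 downstream target are printed, from 250 bases before to 20 bases after the RefSeq start site on GRCh38.p14. PPP1R15B is shown because it was the one window of the 8 available (EIF2AK1 has none in the table used) that held the C/EBP-ATF response element TGATGNAA, EIF2AK2 for its interferon-type element (GAAA and GAAA set 2 bases apart), IMPACT as the member with the largest fold change with the medium in HEK293T, and CHAC1 as a target of ATF4 with the response element. Capitals mark matches of these elements and of the E-box CACGTG, on either strand.

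PPP1R15B, chr1:204411798-204412067, minus strand: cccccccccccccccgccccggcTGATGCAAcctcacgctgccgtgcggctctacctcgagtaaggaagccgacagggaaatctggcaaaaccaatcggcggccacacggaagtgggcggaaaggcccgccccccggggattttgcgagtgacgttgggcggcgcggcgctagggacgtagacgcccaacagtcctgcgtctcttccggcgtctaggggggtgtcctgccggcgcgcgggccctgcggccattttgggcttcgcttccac
EIF2AK2, chr2:37156961-37157230, minus strand: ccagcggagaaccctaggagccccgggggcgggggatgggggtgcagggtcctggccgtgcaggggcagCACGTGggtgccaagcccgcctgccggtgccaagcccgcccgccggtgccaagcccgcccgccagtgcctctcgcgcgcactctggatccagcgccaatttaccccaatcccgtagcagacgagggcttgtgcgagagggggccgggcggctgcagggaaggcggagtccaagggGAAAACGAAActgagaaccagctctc
IMPACT, chr18:24426420-24426689, plus strand: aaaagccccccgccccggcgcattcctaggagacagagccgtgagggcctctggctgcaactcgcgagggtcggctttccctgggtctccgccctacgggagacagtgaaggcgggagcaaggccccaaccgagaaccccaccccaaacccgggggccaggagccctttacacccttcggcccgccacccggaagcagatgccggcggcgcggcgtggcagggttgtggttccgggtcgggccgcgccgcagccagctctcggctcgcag
CHAC1, chr15:40953221-40953490, plus strand: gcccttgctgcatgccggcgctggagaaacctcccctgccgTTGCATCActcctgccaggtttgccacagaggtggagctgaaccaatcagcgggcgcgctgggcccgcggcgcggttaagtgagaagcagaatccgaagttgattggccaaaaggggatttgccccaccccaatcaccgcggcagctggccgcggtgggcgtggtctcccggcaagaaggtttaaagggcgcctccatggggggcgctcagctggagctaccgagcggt

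In PPP1R15B the response element began 227 bases before the start site, and in CHAC1 it was read on the opposite strand, 209 bases before it. TGATGNAA was found in 3 of the 7 output genes with a window, which have 13 windows together. It was in 3.62% of 35116 RefSeq windows of 300 bases, a share per window and not per gene. The element in EIF2AK2 began 6 bases before the start site, and that element was in 3.57% of all windows. CACGTG, also in EIF2AK2, was in 7.26% of windows, and the NRF1 element (GCGCA, any base, GCGC) was found in OMA1 and in 5.78% of windows. The IMPACT window held none of the elements searched. The element of endoplasmic reticulum stress genes (CCAAT and CCACG set 9 bases apart) and the heat shock element (GAA, TTC and GAA, each set 2 bases apart) were in no member's window, and in 0.0769% and 0.49% of all windows. CCAAT was in 4 members and in 34.6% of windows. These matches describe letters only.

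Among the kinases, EIF2AK1 was called higher in R1 than in HEK293T in -Met+Hcy. HRI, its product, is the kinase that reticulocytes use to match globin synthesis to heme. The gene lies on chromosome 7 from 6022247 to 6059175 on the minus strand of GRCh38 and has 15 exons in its canonical transcript. It was measured at 119, 121 and 114 CPM in HEK293T +Met, and at 129, 139 and 134 CPM in HEK293T -Met+Hcy. R1 held 200.0, 191 and 216 CPM in +Met, and at 208, 222 and 231 CPM in -Met+Hcy. All 6 R1 libraries lay above all 6 HEK293T libraries, and this held with the TMM scale as well. In -Met+Hcy the R1 level was higher than that of HEK293T by 0.71 on the log2 scale (SE 0.16, 95% interval 0.36 to 1.06, adjusted p = 0.0124, edgeR), and by 0.58 (SE 0.13, adjusted p = 0.00462) without the third R1 -Met+Hcy library. In +Met the log2 difference was 0.42 (SE 0.16, adjusted p = 0.116), which passed the threshold without that library (SE 0.11, adjusted p = 0.0139) in DESeq2 (adjusted p = 0.0366) and with column sums alone (0.78, adjusted p = 0.00388). The call in -Met+Hcy was lost when the first or the second HEK293T -Met+Hcy library was left out (adjusted p = 0.0536 and 0.0539) and when only the libraries compared were fitted (adjusted p = 0.11).

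The change of medium did not move EIF2AK1 past the threshold in either line. Its log2 fold change in HEK293T was -0.11 (SE 0.16, adjusted p = 0.736) with TMM and 0.18 with column sums, so its sign depended on the scale. In R1 it was 0.18 (SE 0.16, 95% interval -0.17 to 0.52, adjusted p = 0.713), and 0.04 (SE 0.13, adjusted p = 0.997) without the third R1 -Met+Hcy library.

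EIF2AK2 encodes PKR, an interferon-inducible kinase that binds double-stranded RNA, and lies on chromosome 2 from 37099210 to 37157522 on the minus strand, with 17 exons. Its levels were 23.5, 28.8 and 26.0 CPM in HEK293T +Met and 35.5, 31.0 and 28.5 CPM in HEK293T -Met+Hcy. R1 held 42.5, 39.1 and 48.4 CPM in +Met, and 36.4, 39.4 and 78.7 CPM in -Met+Hcy, the last value from the library that stood apart. The R1 +Met and HEK293T +Met libraries did not overlap. In +Met the log2 difference of R1 over HEK293T was 0.38 (SE 0.31, adjusted p = 0.471), and with the same estimate EIF2AK2 was called higher without the third R1 -Met+Hcy library (SE 0.12, adjusted p = 0.0311). In -Met+Hcy it was 0.74 with that library and 0.16 without it (adjusted p = 0.126 and 0.399), so the larger value rested on 1 library in this fit. After removal of the GC trend over all 12 libraries it was 0.59 (SE 0.20, adjusted p = 0.0417), which passed the threshold, and without the first R1 -Met+Hcy library it was 0.98 (adjusted p = 0.0474). With the GC trend removed and the third R1 -Met+Hcy library left out as well, it was 0.365 (SE 0.16, adjusted p = 0.104, edgeR) and was not called. The medium gave -0.02 in HEK293T (95% interval -0.68 to 0.65), and in R1 0.35 with that library and -0.23 without it.

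EIF2AK3 encodes PERK, a kinase anchored in the membrane of the endoplasmic reticulum, and lies on chromosome 2 from 88556741 to 88691518 on the minus strand, with 17 exons. It was at 12.7, 16.9 and 14.7 CPM in HEK293T +Met and 22.3, 25.8 and 20.2 CPM in HEK293T -Met+Hcy, 2 groups that did not overlap. The R1 libraries were at 28.1, 19.2 and 28.9 CPM in +Met, and at 22.3, 33.1 and 48.4 CPM in -Met+Hcy. Relative to the other genes the difference between media in HEK293T shrank to 0.34 on the log2 scale (SE 0.30, 95% interval -0.33 to 0.99, adjusted p = 0.562). R1 over HEK293T in +Met was 0.43 (SE 0.30, adjusted p = 0.406), and without the third R1 -Met+Hcy library its adjusted p was 0.0995. In -Met+Hcy the difference was 0.63 (SE 0.30, adjusted p = 0.186), 0.18 (adjusted p = 0.548) without that library, and 0.90 (adjusted p = 0.0466) without the first one of its group, again a value that 1 library decided. For the medium in R1 the log2 fold change was 0.54 (SE 0.30, adjusted p = 0.638, edgeR). It was 0.09 (SE 0.21, adjusted p = 0.993) without the third R1 -Met+Hcy library.

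EIF2AK4 encodes GCN2, the kinase that binds uncharged tRNA when amino acids run short, and lies on chromosome 15 from 39934115 to 40035591 on the plus strand, with 39 exons. It was at 78.1, 90.6 and 72.4 CPM in HEK293T +Met and at 95.6, 96.5 and 81.3 CPM in HEK293T -Met+Hcy, and those groups overlapped. The R1 libraries were at 122, 99.8 and 137 CPM in +Met, and at 98.3, 131 and 115 CPM in -Met+Hcy. In no comparison was EIF2AK4 called. The medium gave a log2 fold change of -0.11 in HEK293T (95% interval -0.51 to 0.28) and -0.01 in R1 (95% interval -0.40 to 0.38), which bounds a change that was not detectable here. Without the third R1 -Met+Hcy library the value in R1 was -0.10 (95% interval -0.46 to 0.25). R1 over HEK293T gave 0.22 in +Met and 0.32 in -Met+Hcy (adjusted p = 0.475 and 0.254), and 0.23 in -Met+Hcy without that library (adjusted p = 0.322).

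**Figure D2:**
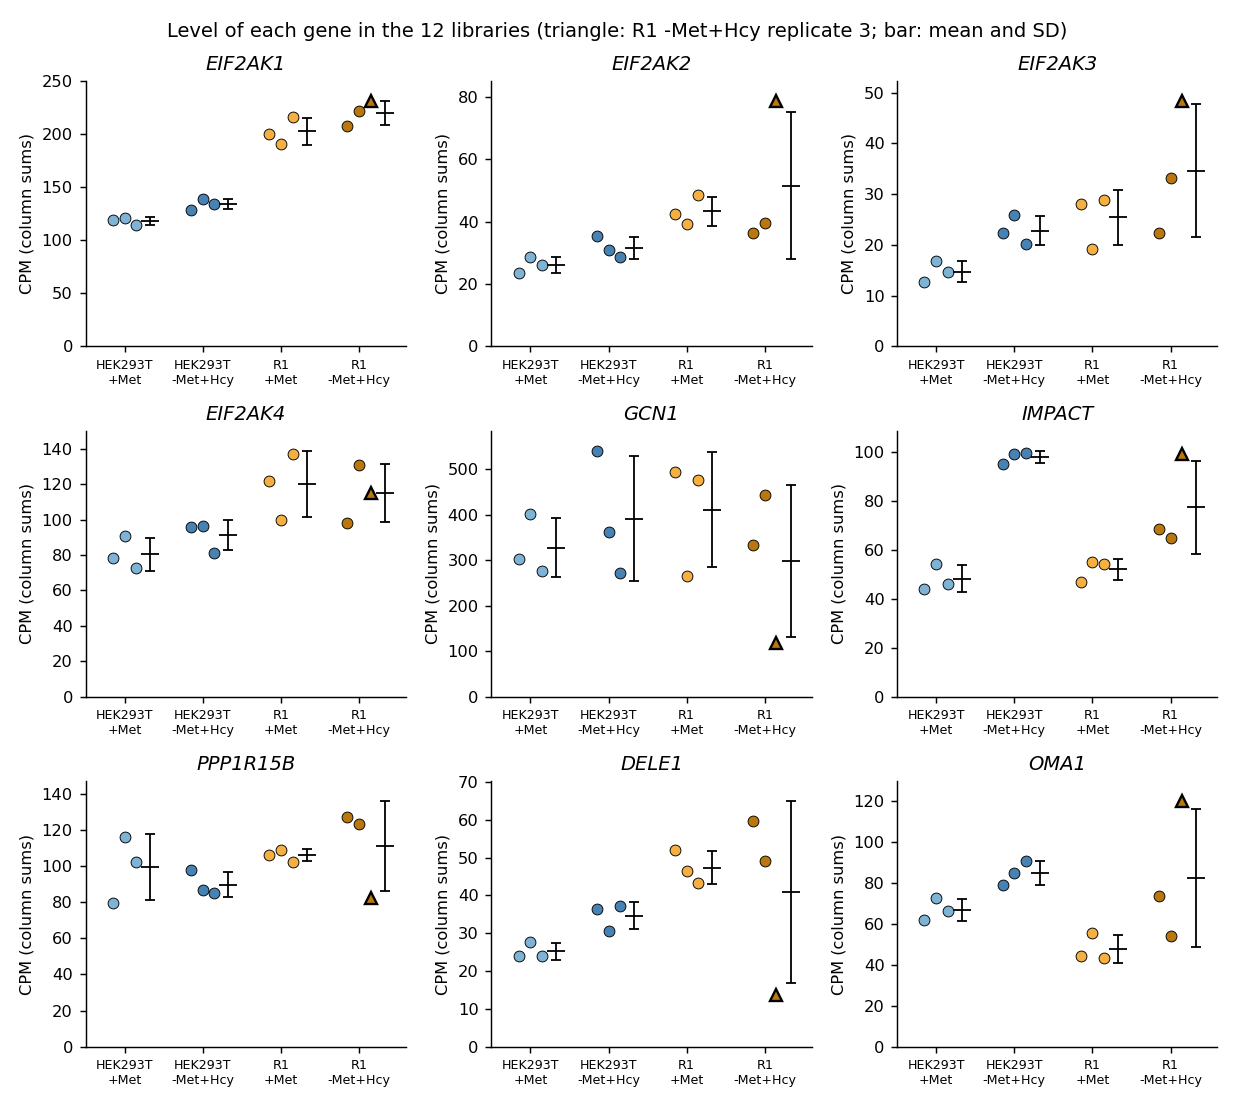
Level of each of the 9 genes in CPM of the column sum (vertical axis, from 0) in the 12 libraries, by group (horizontal axis); points are libraries, the triangle is the third R1 -Met+Hcy library, and the bar gives the mean and SD of the group (n = 3). EIF2AK1 lies between 114 and 139 CPM in HEK293T and between 191 and 231 CPM in R1, and IMPACT between 44.1 and 54.4 CPM in HEK293T +Met and between 95.2 and 99.8 CPM in HEK293T -Met+Hcy.

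Among the regulators of GCN2, IMPACT showed the largest response to the medium in HEK293T. IMPACT competes with GCN2 for GCN1 and so restrains the kinase. The gene lies on chromosome 18 from 24426634 to 24453531 on the plus strand, with 11 exons. It was at 44.1, 54.4 and 46.2 CPM in HEK293T +Met and at 95.2, 99.2 and 99.8 CPM in HEK293T -Met+Hcy. That was about 2.03 times as high on column sums and 1.67 times on the TMM scale. The R1 values were 47.1, 55.2 and 54.1 CPM in +Met, and at 68.4, 64.8 and 99.1 CPM in -Met+Hcy, again without overlap. In HEK293T the log2 fold change was 0.74 (SE 0.23, 95% interval 0.24 to 1.23, adjusted p = 0.0742), and IMPACT rose past the threshold without the third R1 -Met+Hcy library (SE 0.12, adjusted p = 0.00119) and in DESeq2 (0.73, adjusted p = 0.0285). In R1 it was 0.64 (SE 0.23, adjusted p = 0.622), and 0.31 (SE 0.14, adjusted p = 0.692) without that library. The 2 responses differed by -0.09 (SE 0.32, adjusted p = 0.959), or by -0.43 (SE 0.19, 95% interval -0.84 to -0.02, adjusted p = 0.277) without it. In -Met+Hcy, R1 over HEK293T was -0.33 (adjusted p = 0.358), and IMPACT was called lower in R1 without that library (-0.66, SE 0.14, adjusted p = 0.00399).

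GCN1 encodes the large ribosome-bound activator of GCN2 and lies on chromosome 12 from 120127202 to 120194715 on the minus strand, with 58 exons. It was at 303, 401 and 277 CPM in HEK293T +Met and 540, 361 and 271 CPM in HEK293T -Met+Hcy. The R1 values were 493, 265 and 477 CPM in +Met, and at 332, 444 and 117 CPM in -Met+Hcy. The groups overlapped in each comparison, with an SD within a group of 65.1 to 166 CPM. Its log2 fold change with the medium was -0.05 in HEK293T (95% interval -0.86 to 0.77), so that only a large change would have been detected. In R1 it was -0.47 (adjusted p = 0.689), and -0.12 (adjusted p = 0.993) without the third R1 -Met+Hcy library. R1 over HEK293T was -0.02 in +Met, and in -Met+Hcy -0.44 with that library and -0.10 without it (adjusted p = 0.463 and 0.831).

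DELE1 and OMA1 carry the mitochondrial signal to HRI. OMA1 is a protease of the inner mitochondrial membrane that cleaves DELE1 under stress, and the cleaved DELE1 binds HRI in the cytosol. DELE1 (chromosome 5 from 141923855 to 141942047, plus strand, 12 exons) was at 24.0, 27.7 and 23.9 CPM in HEK293T +Met and at 36.3, 30.7 and 37.3 CPM in HEK293T -Met+Hcy. R1 libraries held 52.1, 46.6 and 43.4 CPM in +Met, and at 59.7, 49.2 and 13.7 CPM in -Met+Hcy. Apart from that last value, from the library that stood apart, every R1 value lay above every HEK293T value. In +Met the log2 difference of R1 over HEK293T was 0.56 (SE 0.35, adjusted p = 0.34), and it was called higher in R1 without that library both in +Met (SE 0.14, adjusted p = 0.00864) and in -Met+Hcy (0.54, SE 0.15, adjusted p = 0.0169). With all 12 libraries the value in -Met+Hcy was 0.16 (SE 0.35, adjusted p = 0.792). For the medium in HEK293T the log2 fold change of DELE1 was 0.17 (SE 0.35, adjusted p = 0.82, edgeR). Those 2 groups overlapped on the TMM scale and did not on column sums. For the medium in R1 the value was -0.226 (SE 0.345, adjusted p = 0.818, edgeR). Without the third R1 -Met+Hcy library it was 0.155 (SE 0.151, adjusted p = 0.949), so its sign rested on that library.

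OMA1 (chromosome 1 from 58415384 to 58546802, minus strand, 9 exons) was at 61.9, 72.5 and 66.3 CPM in HEK293T +Met and at 78.9, 84.7 and 90.7 CPM in HEK293T -Met+Hcy. R1 libraries held 44.2, 55.6 and 43.2 CPM in +Met, and at 73.8, 54.1 and 120.0 CPM in -Met+Hcy. In +Met every R1 library lay below every HEK293T library. The log2 difference there was -0.84 (SE 0.30, 95% interval -1.49 to -0.19, adjusted p = 0.0977), and OMA1 was called lower in R1 without the third R1 -Met+Hcy library (SE 0.16, adjusted p = 0.00226) or without the second (adjusted p = 0.0467). In -Met+Hcy it was -0.01 with that library and -0.51 without it (adjusted p = 0.987 and 0.0508). With the medium, R1 gave 0.88 (SE 0.30, adjusted p = 0.622), and 0.38 without that library (SE 0.18, adjusted p = 0.717). HEK293T gave 0.05 with the medium (SE 0.30, adjusted p = 0.944, edgeR). Its 2 groups overlapped on the TMM scale and did not on column sums.

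PPP1R15B is the constitutive subunit that directs protein phosphatase 1 to eIF2. It lies on chromosome 1 from 204396492 to 204411887 on the minus strand, with 2 exons. It was at 79.7, 116 and 102 CPM in HEK293T +Met and at 97.5, 86.6 and 85.1 CPM in HEK293T -Met+Hcy. The R1 values were 106, 109 and 102 CPM in +Met, and 127, 123 and 82.3 CPM in -Met+Hcy. On column sums the HEK293T groups overlapped, with a ratio of 0.904, and on the TMM scale they did not, with a ratio of 0.739. The log2 fold change in HEK293T was -0.44 (SE 0.17, adjusted p = 0.159), and PPP1R15B fell past the threshold without the third R1 -Met+Hcy library (SE 0.13, adjusted p = 0.0293). With column sums alone it was not called. The response in R1 minus that in HEK293T was 0.53 (SE 0.25, adjusted p = 0.522), and 0.63 (SE 0.20, adjusted p = 0.127) without that library.

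Of the 9 genes, 0 were called for the medium in HEK293T by edgeR (2 at an unadjusted p under 0.05), where 7.03% of all genes were called. DESeq2 called 1 of the 9, with 13.1% of all genes, and edgeR without the third R1 -Met+Hcy library called 2, with 27.7% of all genes. For the medium in R1, 0 were called by edgeR (2 at an unadjusted p under 0.05), 0 by DESeq2 and 0 without that library, against 0.00583%, 0.234% and 0.0176% of all genes. For the difference of the 2 responses, 0 were called by edgeR (0 at an unadjusted p under 0.05), 0 by DESeq2 and 0 without that library, against 0.0583%, 1.43% and 1.68%. For R1 against HEK293T in +Met, 0 were called by edgeR (2 at an unadjusted p under 0.05), 1 by DESeq2 and 4 without that library, against 10.2%, 16.8% and 32.7%. In -Met+Hcy, 1 was called by edgeR, 1 by DESeq2 and 3 without that library, against 14.0%, 20.7% and 30.3%. Read against these shares, the counts are no result about the 9 genes as a set. The comparisons share their control libraries and are not independent of each other.

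**Figure D3:**
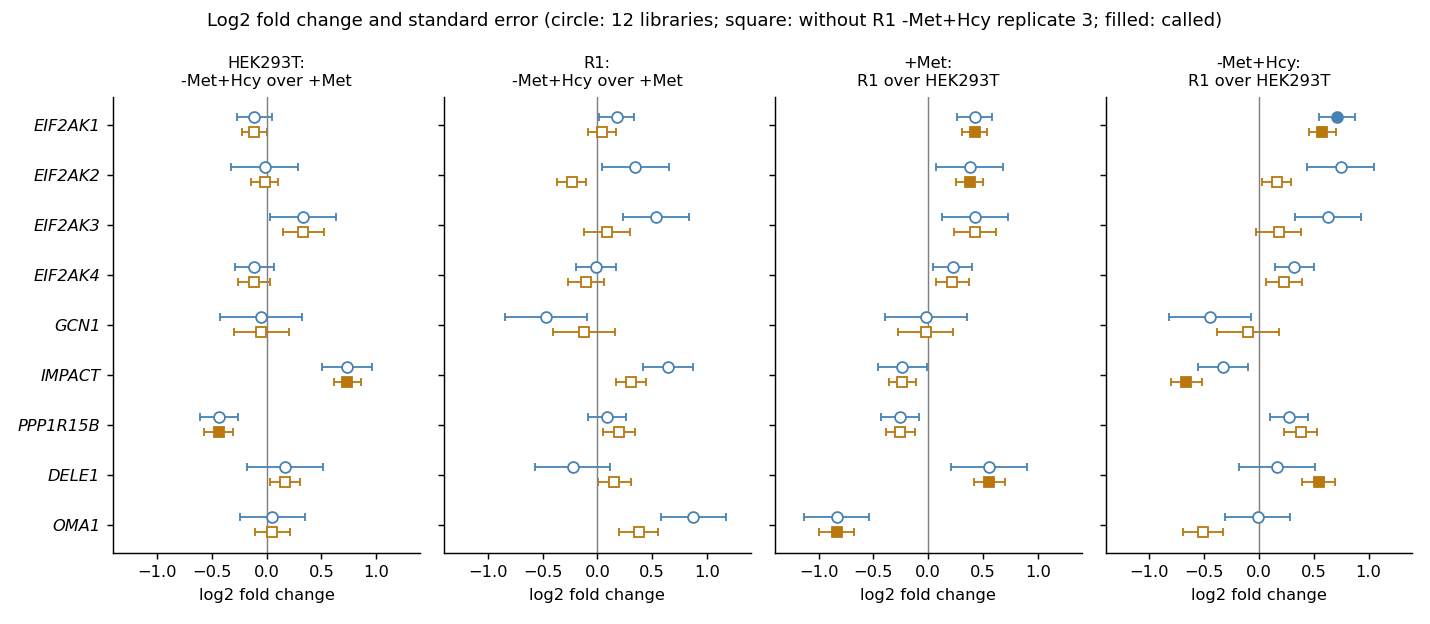
Log2 fold change (horizontal axis) with its standard error for the 9 genes in 4 comparisons, with all 12 libraries (circles) and without the third R1 -Met+Hcy library (squares); filled symbols were called at an adjusted p under 0.05 over all genes. EIF2AK1 in -Met+Hcy is the one filled circle (0.71), and the squares are filled for IMPACT and PPP1R15B in HEK293T, for EIF2AK1, EIF2AK2, DELE1 and OMA1 in +Met, and for EIF2AK1, IMPACT and DELE1 in -Met+Hcy.

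Set on a scale per kilobase of canonical transcript, the 9 genes kept different places. In HEK293T +Met the order began with GCN1 (37.7 ± 7.49 CPM per kb, SD, n = 3) and OMA1 (36.0 ± 2.88), which overlapped, and went on with EIF2AK1 (26.8 ± 0.83), PPP1R15B (18.9 ± 3.49), EIF2AK4 (14.5 ± 1.68) and IMPACT (12.9 ± 1.46). PPP1R15B overlapped with EIF2AK4, and EIF2AK4 with IMPACT. DELE1 (5.14 ± 0.44), EIF2AK3 (3.25 ± 0.46) and EIF2AK2 (2.62 ± 0.26) came last, and EIF2AK3 and EIF2AK2 overlapped. In R1 +Met, EIF2AK1 stood at 45.9 ± 2.87 CPM per kb, beside GCN1 at 47.4 ± 14.6. Of the summed level of the 4 kinases per kilobase, EIF2AK1 made up 56.9% ± 2.04 in HEK293T +Met, 55.3% ± 2.50 in HEK293T -Met+Hcy, 59.4% ± 2.54 in R1 +Met and 60.1% ± 3.63 in R1 -Met+Hcy. EIF2AK4 followed with 30.7% ± 1.62, 29.9% ± 1.71, 27.8% ± 1.67 and 24.8% ± 2.59. The order of the kinases below EIF2AK1 depended on the length used. EIF2AK2 has a canonical transcript of 9975 bases with a coding part of 1653, and by coding length it held 15.9% ± 1.05 in HEK293T +Met, 16.6% ± 1.68 in HEK293T -Met+Hcy, 15.9% ± 0.36 in R1 +Met and 16.7% ± 5.38 in R1 -Met+Hcy. EIF2AK4 then held 16.4% ± 1.03, 16.0% ± 0.98, 14.6% ± 1.06 and 12.9% ± 1.86, so EIF2AK2 had the larger mean in 3 of the 4 groups, with ranges that did not overlap in R1 +Met. Without the third R1 -Met+Hcy library the means in that group were 13.6% and 13.7%. EIF2AK3 came last by coding length, with 4.44% ± 0.46 in HEK293T +Met. EIF2AK1 was the most abundant kinase under both lengths. The order of the 9 genes depended on the length as well. By coding length in HEK293T +Met it began with EIF2AK1 (62.5 ± 1.93 CPM per kb), IMPACT (50.2 ± 5.69) and PPP1R15B (46.4 ± 8.57). GCN1 stood at 40.8 ± 8.12 there, and IMPACT, PPP1R15B and GCN1 overlapped.

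The genes most like 3 of the kinases over the 12 libraries, by Pearson's r of log2 CPM among 9168 genes, were RABEP1 (0.979), SMC4 (0.976) and ACSL3 (0.973) for EIF2AK2. For EIF2AK3 they were STAM (0.969), BTRC (0.965) and PLEKHA5 (0.958), and for EIF2AK4 they were SWAP70 (0.972), ITSN1 (0.963) and KIF11 (0.963). Without the third R1 -Met+Hcy library the 3 genes of EIF2AK4 stayed the same, BTRC stayed for EIF2AK3 (0.913) beside UNC119B (0.944) and ADGRV1 (0.916), and all 3 were other genes for EIF2AK2 (ZNF839 0.949, RALGAPA1 0.947, CREB3L2 0.942). Without that library the genes most like EIF2AK1 were USP18 (0.985), HTRA1 (0.984) and ARMC9 (0.982). The points share 4 groups, library depth and base composition. Among the kinases themselves, r over 12 libraries ranged from 0.712 between EIF2AK1 and EIF2AK3 to 0.868 between EIF2AK2 and EIF2AK3, and without that library from 0.487 for EIF2AK1 and EIF2AK3 to 0.787 for EIF2AK2 and EIF2AK4.

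Downstream of the kinases, in HEK293T, 6 of the 8 output genes, a list that includes ATF4 itself, were called higher in -Met+Hcy by edgeR. Of all genes 7.03% were called in that comparison. The 8 had a median log2 fold change of 1.69 against -0.02 for the 9 kinases and regulators and 0.03 for all genes. ATF4 (0.34, SE 0.17, adjusted p = 0.265) and TRIB3 (1.13, SE 0.64, adjusted p = 0.327) were not called. TRIB3 was at 11.1 to 11.8 CPM in HEK293T +Met and 29.6 to 31.9 CPM in HEK293T -Met+Hcy. Without the third R1 -Met+Hcy library edgeR called 7 of the 8 higher, TRIB3 among them and ATF4 not. Over all genes 27.7% were called in that fit. CHAC1, which degrades glutathione, rose by 4.68 on the log2 scale (SE 0.50, adjusted p = 0.000537), from 4.84 to 6.95 CPM across the +Met libraries to 170 to 198 CPM. NUPR1, a stress-induced chromatin protein, rose by 4.15 (SE 0.60), SESN2, a leucine sensor, by 2.73 (SE 0.28), CEBPG, a partner of ATF4, by 2.00 (SE 0.18) and DDIT3 (CHOP) by 1.39 (SE 0.26). The rise of NUPR1 began from a low level, 0.342 to 1.1 CPM in HEK293T +Met, and reached 12.6 to 16.3 CPM in HEK293T -Met+Hcy. In R1, 0 of the 8 were called by edgeR for the medium (6 at an unadjusted p under 0.05), with a median of 0.75, DESeq2 called 2 (CEBPG and CHAC1), and without the third R1 -Met+Hcy library CHAC1 was called (2.56, SE 0.18, adjusted p = 3.9e-05).

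Of 4 phosphatase genes, PPP1R15A (GADD34), the inducible partner of PPP1R15B, was called. It was at 34.7 to 43.0 CPM in HEK293T +Met and 90.2 to 98.9 CPM in -Met+Hcy, and rose by 0.94 (SE 0.21, adjusted p = 0.0195), while PPP1R15B had a value of -0.44. In R1 it was called lower than in HEK293T in +Met (-0.76, SE 0.21) and in -Met+Hcy (-1.67, SE 0.21). The other phosphatase genes, PPP1CA, PPP1CB and PPP1CC, encode the catalytic subunits and were not called by edgeR in any comparison with all 12 libraries, while DESeq2 and edgeR without the third R1 -Met+Hcy library called PPP1CC lower in R1 in +Met.

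The 8 genes of eIF2 and eIF2B held 0 calls for the medium in HEK293T by edgeR (4 at an unadjusted p under 0.05), 3 lower ones by DESeq2 (EIF2B3, EIF2B5, EIF2S1) and 4 lower ones (EIF2B3, EIF2B4, EIF2B5, EIF2S1) without the third R1 -Met+Hcy library, with a median of -0.37. Over all genes 7.03%, 13.1% and 27.7% were called in these fits. R1 had lower EIF2S1 (-0.75, SE 0.21, adjusted p = 0.0398) and EIF2B2 (-0.81, SE 0.20, adjusted p = 0.0249) in +Met, and 0 were called in -Met+Hcy (edgeR). DESeq2 called 4 lower in +Met (these with EIF2B3 and EIF2S3) and EIF2B1 in -Met+Hcy. Without the third R1 -Met+Hcy library the same 4 were called in +Met, and EIF2B2, EIF2S2 and EIF2S3 in -Met+Hcy. Over all genes these fits called 10.2%, 16.8% and 32.7% in +Met, and 14.0%, 20.7% and 30.3% in -Met+Hcy. EIF2S1 is the subunit that the kinases phosphorylate. Of the 4 genes set as input of GCN2, the ribosomal stalk proteins RPLP0 (-1.20, SE 0.34) and RPLP2 (-1.15, SE 0.19) were lower in R1 in +Met, and lower again in -Met+Hcy (-1.26 and -0.90). RPLP1, the other stalk protein listed, was called lower in R1 in both media by DESeq2 and by edgeR without the third R1 -Met+Hcy library. It was not called with all 12 libraries by edgeR, and MAP3K20 was not called in any of these fits. Ribosomal protein genes have many near-identical pseudogenes, so their counts are uncertain. Of the 5 partners of PERK and PKR, HSPA5 (BiP), the chaperone that holds PERK inactive, was higher in R1 in +Met (0.61, SE 0.15, adjusted p = 0.0257) and not called between the lines in -Met+Hcy (0.25, SE 0.15, adjusted p = 0.29). With the medium in HEK293T, HSPA5 was at 0.51 (SE 0.15, adjusted p = 0.0678), and it was called higher by DESeq2 and by edgeR without the third R1 -Met+Hcy library (SE 0.12, adjusted p = 0.009). DNAJC3, PRKRA, TARBP2 and ADAR were not called by edgeR. Of the 5 genes of the mitochondrial input to HRI (OPA1, YME1L1, LONP1, PHB1, PHB2), 0 were called by edgeR in the 5 comparisons with all 12 libraries, with 0 to 3 at an unadjusted p under 0.05. DESeq2 called PHB1 and PHB2, which form the prohibitin scaffold of the inner membrane, lower in R1 in +Met. Without the third R1 -Met+Hcy library edgeR called both lower there (-0.95, SE 0.24, and -0.71, SE 0.23), and PHB2 lower with the medium in HEK293T (-0.68, SE 0.23, adjusted p = 0.0424).

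**Figure D4:**
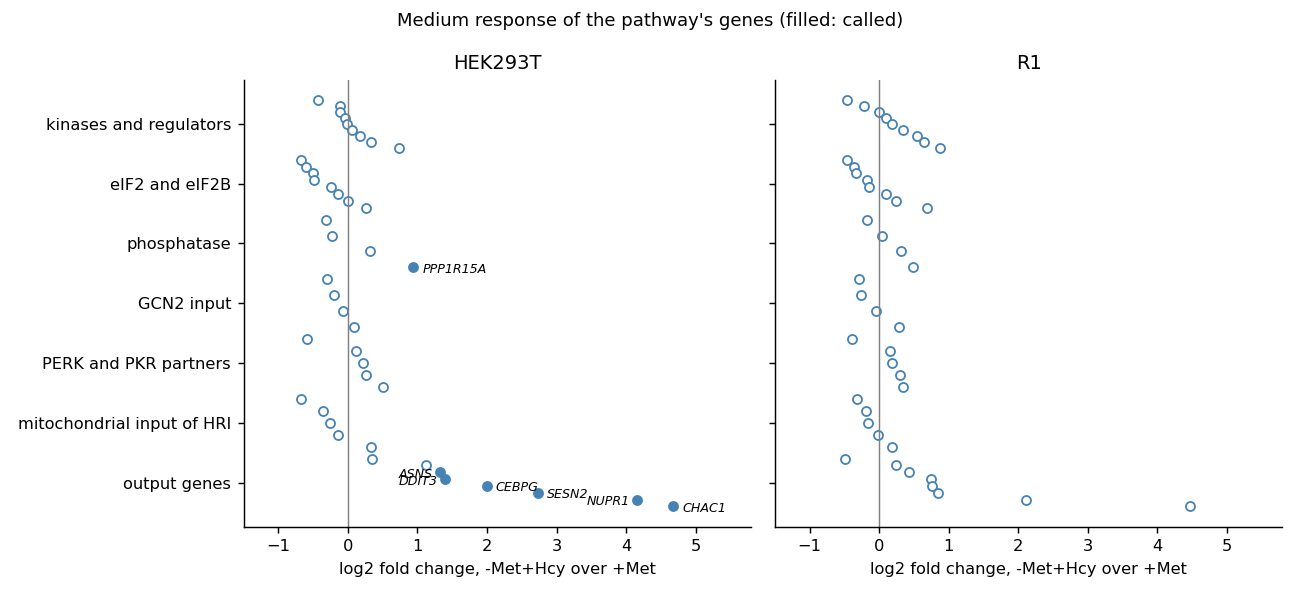
Log2 fold change of -Met+Hcy over +Met (horizontal axis) in HEK293T and in R1 for the 9 kinases and regulators and the genes of 6 pathway lists (rows), with all 12 libraries; filled points were called at an adjusted p under 0.05. In HEK293T the 6 filled output genes lie between 1.32 and 4.68 and PPP1R15A at 0.94, while the kinases and regulators lie between -0.44 and 0.74 with none filled.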

How the data were processed

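Human HEK293T and R1 cells were compared in 4 groups of 3 libraries. The authors quantified reads with kallisto 0.48.0 on GRCh38, added the estimated counts of a gene's transcripts and made the sums whole numbers, and these expected counts were deposited without scaling. Trimming, strand and annotation version are not given in the sources used here. The 9 genes, the pathway lists and the tests were chosen with earlier results of these data known.

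Genes with a summed count of at least 10 were fitted in R 4.3.3 with edgeR 4.0.16 (quasi-likelihood, TMM, 1 mean per group, Benjamini-Hochberg adjustment over all genes tested), and called means an adjusted p under 0.05. Standard errors are the log2 fold change over the square root of F. Total counts were 12664158 to 18771349, and counting errors cover counting only. Alternatives were DESeq2 1.42.0, other scaling and filters, the compared libraries alone, a replicate block, a fold threshold, removal of a GC trend by loess and leaving out each library. Column-sum scaling, GC removal together with leaving out the third R1 -Met+Hcy library, and levels and shares by coding length were added after seeing the data. Levels per kilobase used canonical GENCODE transcripts, likeness was searched among genes averaging 10 CPM or more, and promoter windows came from RefSeq. All 9 genes are named. From each pathway list the genes called in at least 1 comparison are named, up to 5, or the whole list where it has 5 or fewer. The edgeR script was tested on simulated data. The genes most like EIF2AK1 over all 12 libraries are not reported here.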

Additional observations from a re-analysis of the deposited data

Results flagged for a closer look

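SESN2, a downstream gene of ATF4 rather than one of the kinases, responded to the medium differently in the 2 lines by the interaction test of edgeR with all 12 libraries: the response in R1 minus that in HEK293T was -2.49 on the log2 scale (SE 0.37, adjusted p = 0.046, edgeR), and -2.24 (SE 0.24, adjusted p = 0.00204) without the third R1 -Met+Hcy library. It was at 9.45 to 13.2 CPM in HEK293T +Met and 79.6 to 107 CPM in HEK293T -Met+Hcy, and at 20.2 to 24.1 and 13.5 to 37.3 CPM in R1. With any 1 of the HEK293T +Met libraries left out, 0 genes passed the threshold for this difference. The count was also 0 without the second or the third HEK293T -Met+Hcy library, and without the second or the third R1 +Met library. DESeq2 called 3 output genes for this difference (CEBPG, CHAC1 and SESN2), and edgeR without the third R1 -Met+Hcy library called 4 (the same 3 and TRIB3). In each of them the response to the medium in R1 was below that in HEK293T.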

How the results depend on the processing

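The third R1 -Met+Hcy library, the scale and 3 libraries a group limit these results, and the cause of the moves below was not tested. Over the 45 log2 fold changes of the 9 genes, 952 values under the alternatives kept their side of the threshold, 34 passed it and 4 no longer did, and 0 called values turned sign. The 4 were EIF2AK1 in -Met+Hcy, with the compared libraries alone, with a log2 fold threshold of 1, and without the first or the second HEK293T -Met+Hcy library. Without the first R1 -Met+Hcy library, 3 of the 9 were called there, with 2484 of all 17056 genes tested.

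Of the 9 genes, DESeq2, column sums and GC removal each called 1 for the medium in HEK293T, and the compared libraries alone, or GC removal without the third R1 -Met+Hcy library, called 2. Over all genes these fits called, in that order, 2237 of 17125, 2007 of 17162, 2542 of 15857, 5562 of 16275 and 5008 of 15798. For R1 against HEK293T in +Met the counts were 1 with DESeq2, 1 with column sums, 2 with GC removal, 3 with the compared libraries alone and 4 with GC removal without that library. The calls over all genes were, in that order, 2884 of 17125, 2608 of 17162, 3127 of 15857, 4865 of 16201 and 5714 of 15798. In -Met+Hcy they were 3 with GC removal, 0 with the compared libraries alone, 0 with the fold threshold and 4 with GC removal without that library. All genes gave, in that order, 4070 of 15857, 498 of 16523, 1708 of 17162 and 5118 of 15798. Read beside these calls, the counts are no result about the 9 genes as a set. Leaving out 1 library at a time gave 0 to 2, 0 to 4 and 0 to 3 of the 9 for these comparisons, and 0 for the others. The ranges over all genes are given below.

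Over all genes, calls for the medium in HEK293T were 1207, and 2237 with DESeq2, 2007 with column sums, 2542 with GC removal, 5562 with the compared libraries alone, 794 with the fold threshold and 5008 with GC removal without that library. For the medium in R1 they were 1, and 40 with DESeq2, 3 with GC removal, 0 with the compared libraries alone and 6 with GC removal without that library. For the difference of the responses they were 10, and 245 with DESeq2, 32 with column sums, 6 with no filter, 106 with GC removal and 590 with GC removal without that library. For the lines in +Met they were 1745, and 2884 with DESeq2, 3127 with GC removal, 4865 with the compared libraries alone and 5714 with GC removal without that library. For the lines in -Met+Hcy they were 2395, and 4070 with GC removal, 498 with the compared libraries alone and 5118 with GC removal without that library. Leaving out 1 library at a time gave 289 to 4731, 0 to 3, 0 to 287, 626 to 5582 and 1079 to 5168, the highest always without the third R1 -Met+Hcy library. With column sums alone, 1794 calls for the medium in HEK293T were higher and 213 lower, against 730 and 477 with TMM, and for the lines in +Met 2251 and 357 against 976 and 769.

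Same-numbered libraries of different groups did not deviate together as a rule (correlations of -0.718 to 0.595, median 0.005, over 18 pairs). The first library of each group had a positive rho of its deviation with GC content. It was 0.54 in HEK293T +Met, 0.33 in HEK293T -Met+Hcy, 0.46 in R1 +Met and 0.6 in R1 -Met+Hcy. Because the deviations carry that GC trend, the correlations do not settle whether the numbers pair the samples. With the replicate number as a block, 618 genes were called for the medium in HEK293T, 0 for the difference of the responses and 1122 for the lines in +Met, and the calls among the 9 genes were 0, 0, 0, 0 and 1 as without the block.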
